A study of Homo sapiens with 4 samples.

Results

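The 6 neutrophil-attracting CXC chemokine genes CXCL1, CXCL2, CXCL3, CXCL5, CXCL6 and CXCL8, with the genes of their receptors CXCR1 and CXCR2, were followed in cells of the human bile duct cancer line HuCCT1. Every probe set annotated with 1 of these symbols alone was taken, which gave 13 probe sets for the 8 genes, of 54613 probe sets and 19775 genes in the table. The data were 4 Affymetrix 3′ expression arrays of total RNA, of which 2 were labelled HuCCT1 with wild-type ARID1A and 2 were labelled HuCCT1 with ARID1A knocked out. ARID1A encodes a DNA-binding subunit of the SWI/SNF chromatin remodelling complex, and the series title concerns the effect of its loss in cholangiocarcinoma. The knockout was made with a lentiviral Cas9 vector, lentiCRISPR v2, and the guide tgagcgagactgagcaacac against ARID1A, followed by puromycin and isolation of clones by limiting dilution. All cells were grown in RPMI medium with serum. The labels do not give how many clones were profiled, whether the wild-type cells carried a vector, or whether a group's arrays stand for separate cultures. The p-values therefore cover array-to-array spread alone, possibly technical spread.

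Chemokines of this family carry the amino acids glutamate, leucine and arginine (ELR) just before their CXC cysteine motif, and this motif lets them bind CXCR1 and CXCR2, receptors that sit mainly on neutrophils. Epithelial and tumour cells secrete them after interleukin-1, tumour necrosis factor or bacterial signals, largely through NF-kB and with a further contribution from AP-1 and C/EBP factors and from slower mRNA decay. The ligand genes lie together in a cluster on the long arm of chromosome 4, and CXCR1 and CXCR2 lie next to each other on chromosome 2. In bile duct tumours the ligands are known for drawing neutrophils into the tissue.

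The groups stood apart over the whole array. Pearson's r across probe sets, which are not independent, was 0.996 within the wild-type pair, 0.992 within the knockout-labelled pair and 0.928 to 0.934 between groups. A check for exchanged samples found that 2 of the 4 arrays did not match the others, with each labelled group matching within itself. A difference in the origin of the cells and the loss of ARID1A therefore cannot be told apart, and the groups are named here by their labels. ARID1A mRNA was 8.55 and 8.61 on the wild-type arrays and 6.15 and 5.95 on the knockout-labelled arrays in its brightest probe set, which differed by −2.53 ± 0.13 (log2, SE, limma adjusted p = 0.000395), and 3 of its 4 probe sets were called lower. The guide was not placed in the gene here, so how far these probes check the knockout is not known. Over all genes, each taken by its brightest probe set like the markers that follow, 15.2% were called lower and 18.8% higher. Of 11 measured bile duct epithelial markers, 6 were called lower, 2 higher and 3 not. The keratins KRT7 (12.45 against 10.13), KRT8 (10.45 against 11.28), KRT18 (12.31 against 12.55) and KRT19 (11.44 against 10.52) were bright in both groups. KRT7 differed by −2.32 ± 0.11 (limma adjusted p = 0.000329) and KRT8 by 0.82 ± 0.14 (limma adjusted p = 0.0118). KRT19 differed by −0.92 ± 0.12 (limma adjusted p = 0.00627), a call lost without knockout replicate 2, wild-type replicate 1 or wild-type replicate 2. The KRT8 call was lost without knockout replicate 1. The adhesion molecules EPCAM (−4.73) and CDH1 (−3.51) and the chloride channel CFTR (−4.40) were lower, and SPP1, which encodes osteopontin, was higher by 8.58 (2.71 against 11.29). Of 12 leukocyte and neutrophil markers, 2 were lower, 0 higher and 10 not called, and their summed log2 level was 40.3 to 40.9 on the wild-type arrays and 37.9 on both knockout-labelled arrays. The lower ones were CD14 (4.96 against 3.01, limma adjusted p = 0.00281) and the integrin gene ITGB2 (6.35 against 5.27, limma adjusted p = 0.00571), whose call was lost without wild-type replicate 1 (adjusted p = 0.0839) or wild-type replicate 2 (adjusted p = 0.0945). The pan-leukocyte gene PTPRC lay at percentiles 15.5 and 12.7 and MPO, the neutrophil myeloperoxidase, at percentiles 34.1 and 29.1 of the wild-type and knockout-labelled means. Of 10 fibroblast and endothelial markers, the collagen gene COL1A1 (−4.76) and LUM (−5.24) were lower and the actin gene ACTA2 was higher by 2.97, its call lost without wild-type replicate 1 (adjusted p = 0.06) or wild-type replicate 2 (adjusted p = 0.0589). Of 7 hepatocyte markers 0 were lower and 2 higher, ALB and the fibrinogen gene FGB (2.20 ± 0.16), whose call was lost without wild-type replicate 1 (adjusted p = 0.0547) or wild-type replicate 2 (adjusted p = 0.0505). The part of these other cell type markers in the results below was not tested.

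The promoter sequences of the 6 ligands are shown first because they share a feature that the choice of genes did not use. RefSeq promoter windows (build GRCh38.p14, 250 bases before to 50 after the gene start) were found for all 8 genes. The stretches below run 5′ to 3′ on the gene's strand from 130 to 31 bases before the start, and capitals mark the NF-kB motif matches, the core letters in CXCL8 and the core with its overlapping consensus in the others. Their positions are chr4:73869263-73869362 on the plus strand for CXCL1, chr4:74099226-74099325 on the minus strand for CXCL2, chr4:74038720-74038819 on the minus strand for CXCL3, chr4:73998708-73998807 on the minus strand for CXCL5, chr4:73836548-73836647 on the plus strand for CXCL6 and chr4:73740439-73740538 on the plus strand for CXCL8.
CXCL1: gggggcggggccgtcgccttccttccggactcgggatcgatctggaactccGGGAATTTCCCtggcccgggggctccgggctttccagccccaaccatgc
CXCL2: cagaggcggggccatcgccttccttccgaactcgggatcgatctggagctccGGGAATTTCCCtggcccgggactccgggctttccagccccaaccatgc
CXCL3: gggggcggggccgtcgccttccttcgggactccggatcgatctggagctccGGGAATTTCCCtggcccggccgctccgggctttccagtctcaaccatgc
CXCL5: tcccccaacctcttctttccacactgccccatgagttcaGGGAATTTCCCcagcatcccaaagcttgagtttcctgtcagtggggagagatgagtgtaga
CXCL6: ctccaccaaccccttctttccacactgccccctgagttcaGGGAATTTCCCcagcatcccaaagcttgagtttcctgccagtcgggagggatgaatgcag
CXCL8: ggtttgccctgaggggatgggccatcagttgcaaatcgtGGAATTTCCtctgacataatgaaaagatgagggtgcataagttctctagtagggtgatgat

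All 6 ligand windows held the letters GGAATTTCC, the core of an NF-kB site, on the gene's own strand. The motif was searched on both strands and was found in 129 of 27305 windows of the same length (0.472%), the 6 ligands included. Counted from the start, it began at position −78 in CXCL1 and CXCL3, −77 in CXCL2, −90 in CXCL5, −89 in CXCL6 and −91 in CXCL8. A broader NF-kB consensus that overlaps this core was present in 5 of the 6 ligands, all but CXCL8, and in 10.8% of all windows. The AP-1 motif TGANTCA was found in CXCL8 alone among the ligands (7.76% of all windows), as was TATAAA (11.95% of all windows). The windows of CXCR1 and CXCR2 held none of these letters. By global alignment the 300-base windows fell into pairs and trios, with 83.1% identical positions between CXCL5 and CXCL6, 82.5% between CXCL1 and CXCL3, 73.8% between CXCL2 and CXCL3 and 71.9% between CXCL1 and CXCL2, while CXCL8 shared 45.2% to 48.0% with each of the others. Because windows within a pair or trio are so alike, their matches are not separate occurrences. Induction through NF-kB was also known for this family beforehand. A match of letters is a description of these windows, not a measured binding site.

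All 6 ligands were lower on the knockout-labelled arrays than on the wild-type arrays in at least 1 probe set, and neither receptor was called. Of the 13 probe sets, 10 were called lower, 0 were called higher and 3 were not called, at a limma adjusted p under 0.05 with Benjamini-Hochberg adjustment over all probe sets. Among all 54613 probe sets, 13% were called lower and 13.9% higher. The median log2 difference of the 13 probe sets was −7.04, against 0.03 over all probe sets. Differences of 16-fold or more in either direction were seen in 476 of all probe sets, 299 of them lower, and 9 of those 299 were ligand probe sets. The 2 groups did not overlap in 11 of the 13 probe sets, where 60.3% of all probe sets had groups that did not overlap. In bulk RNA, fewer cells that make a transcript and less transcript per cell cannot be told apart.

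**Figure D1:**
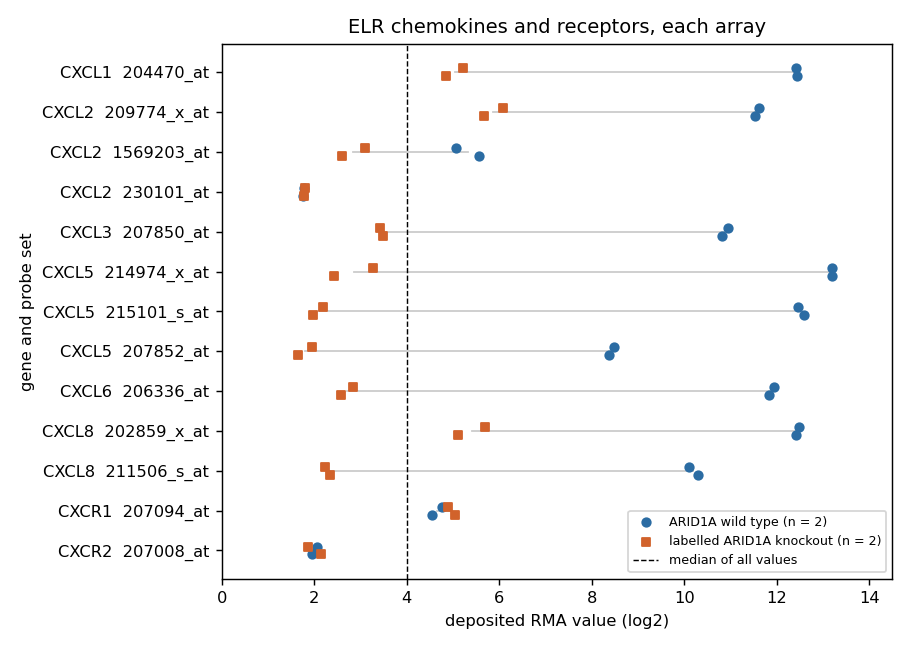
Deposited RMA value (log2, horizontal axis) of each member probe set (vertical axis) on each array. Circles are the 2 wild-type arrays, squares the 2 knockout-labelled arrays, grey lines join group means and the dashed line is the median of all values, 4.01. In the 10 probe sets called lower the circles lie between 5.07 and 13.19 and the squares between 1.64 and 6.08.

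CXCL5, also called ENA-78, had the largest differences. Its probe set 215101_s_at stood at 12.46 and 12.60 on the wild-type arrays and at 2.20 and 1.97 on the knockout-labelled arrays. It differed by −10.44 ± 0.14 (log2, SE, limma adjusted p = 6.51e-05). Its brightest probe set, 214974_x_at, stood at 13.19 on both wild-type arrays and at 3.27 and 2.43 on the knockout-labelled arrays, a difference of −10.34 ± 0.29 (limma adjusted p = 0.000103). These were ranks 1 and 2 among all 54613 probe sets when ordered from the most negative difference. The third probe set of the gene, 207852_at, gave 8.48 and 8.38 against 1.95 and 1.64, a difference of −6.63 ± 0.15 (limma adjusted p = 8.24e-05). The groups did not overlap in any of the 3 probe sets of CXCL5. On 214974_x_at the knockout-labelled arrays lay 0.84 apart, the widest gap within a group among the probe sets called lower.

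CXCL6, the gene for granulocyte chemotactic protein 2 and the closest relative of CXCL5, followed the same order of groups. Its only probe set, 206336_at, read 11.93 and 11.84 on the wild-type arrays and 2.84 and 2.59 on the knockout-labelled arrays. The difference of −9.17 ± 0.14 (limma adjusted p = 6.51e-05) was rank 4 of the table.

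CXCL8, which encodes interleukin-8, was lower in both of its probe sets. Probe set 202859_x_at read 12.48 and 12.42 against 5.70 and 5.11, a difference of −7.04 ± 0.21 (limma adjusted p = 0.000124). Probe set 211506_s_at read 10.10 and 10.30 against 2.24 and 2.34, a difference of −7.91 ± 0.13 (limma adjusted p = 6.51e-05). On the knockout-labelled arrays the first of these lay at percentile 68.3 of the array and the second at percentile 18.6. The files give no detection call, so whether the higher reading is transcript or background signal was not tested.

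CXCL1, CXCL2 and CXCL3 encode the GRO alpha, beta and gamma chemokines, whose sequences are close to each other. CXCL1 (204470_at) read 12.41 and 12.43 on the wild-type arrays and 5.22 and 4.85 on the knockout-labelled arrays, a difference of −7.39 ± 0.16 (limma adjusted p = 8.01e-05). CXCL3 (207850_at) read 10.95 and 10.81 against 3.41 and 3.48, a difference of −7.43 ± 0.12 (limma adjusted p = 6.51e-05). The groups stood at least 7.19 apart at their nearest arrays in both genes.

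CXCL2 was the ligand whose probe sets differed most from each other. Its brightest probe set, 209774_x_at, read 11.62 and 11.53 against 6.08 and 5.66, a difference of −5.70 ± 0.17 (limma adjusted p = 0.000123). A dimmer one, 1569203_at, read 5.07 and 5.57 against 3.10 and 2.59, a difference of −2.47 ± 0.25 (limma adjusted p = 0.00277). Its call was lost without wild-type replicate 1 (adjusted p = 0.0553) and without wild-type replicate 2 (adjusted p = 0.0644), and with values under 4.01 set to 4.01 (limma adjusted p = 0.103). The remaining probe set, 230101_at, lay between 1.76 and 1.79 on all 4 arrays and gave no difference to call (0.02 ± 0.11, limma adjusted p = 0.93). A suffix of _x_at marks probes that can match other sequences, and cross-hybridisation among the GRO genes was not tested. With all _x_at and _s_at probe sets left out, CXCL1, CXCL2, CXCL3, CXCL5 and CXCL6 each still had a probe set called lower, and CXCL8 had no probe set left.

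The receptors were not called. CXCR1 (207094_at) read 4.76 and 4.55 on the wild-type arrays and 4.89 and 5.03 on the knockout-labelled arrays, a difference of 0.31 ± 0.13 (limma adjusted p = 0.167), with its groups not overlapping. CXCR2 (207008_at) read 2.06 and 1.95 against 1.86 and 2.14, a difference of −0.01 ± 0.14 (limma adjusted p = 0.986), and its groups overlapped. CXCR2 was near the bottom of both groups, at percentiles 13.2 and 12.2.

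**Figure D2:**
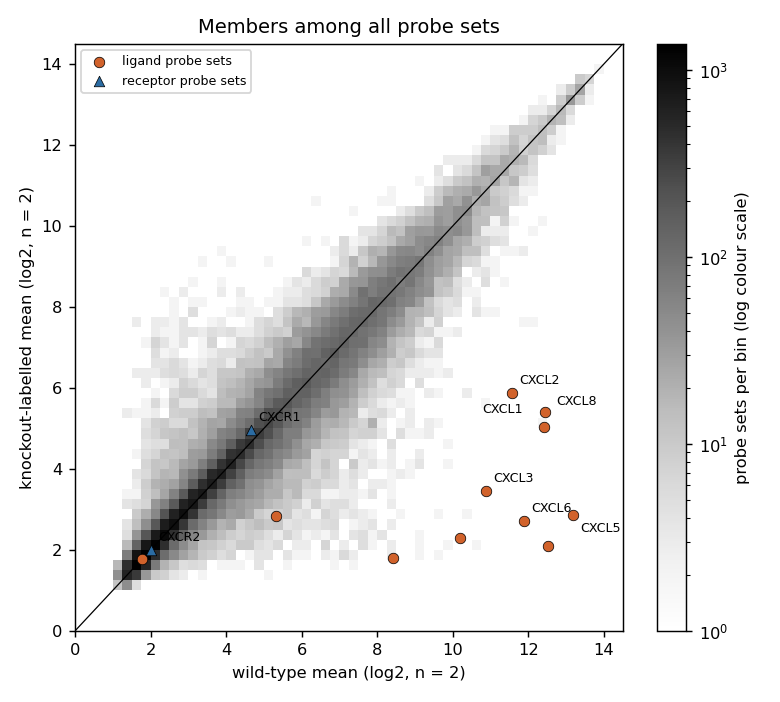
Mean of the 2 wild-type arrays (horizontal axis, log2) against the mean of the 2 knockout-labelled arrays (vertical axis, log2), with all probe sets as grey bins on a log colour scale, ligand probe sets as circles, receptor probe sets as triangles and the line of equal values. Names stand at the brightest probe set of each gene. The 10 ligand probe sets called lower sit below the line, from −2.47 to −10.44, and both receptors lie beside it.

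The wild-type arrays read the ligands closely alike and the knockout-labelled arrays less so. In the 10 probe sets called lower, the gap between the wild-type arrays ran from 0.00 to 0.50 and that between the knockout-labelled arrays from 0.07 to 0.84, with the wider gap in the knockout-labelled pair in 8 of 10. Knockout replicate 2 was the lower array of its pair in 8 of 10. These probe sets stand for 6 genes and are not independent. The shares of all probe sets that go these ways were not counted, so the counts are not particular to the ligands. Over all probe sets the median gap was 0.13 between the wild-type arrays and 0.17 between the knockout-labelled arrays. On the knockout-labelled arrays the means of these 10 probe sets lay between percentiles 7.77 and 72.4, against percentiles 66.7 to 99.9 on the wild-type arrays. Since a value near the bottom of an array is not a measured level, the sizes belong to the deposited scale. With values under 4.01 set to 4.01, the brightest probe sets gave −9.18 for CXCL5, −7.88 for CXCL6 and −6.87 for CXCL3, and CXCL1, CXCL2 and CXCL8 gave the values above.

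The ligands share a stretch of chromosome 4 with related genes, so the order of genes there was followed next. In RefSeq order, 4 measured genes lay between the members, and the 10 nearest measured genes were taken on each side. Each gene was represented by its brightest probe set, the one with the highest mean over the 4 arrays, and 15.2% of all genes taken this way were called lower and 18.8% higher. Of the 4 genes inside the cluster, 3 were lower, and all of them encode platelet-type CXC chemokines. PPBP, the gene of the ELR chemokine CXCL7, read 7.44 and 7.79 against 2.27 and 2.70 (−5.13 ± 0.21, limma adjusted p = 0.000231). PF4V1 differed by −2.85 ± 0.19 (limma adjusted p = 0.000913), and PF4, which encodes platelet factor 4, by −2.37 ± 0.14 (limma adjusted p = 0.000574). The pseudogene PPBPP2 was near the bottom in both groups, at 2.19 and 2.26 (limma adjusted p = 0.685). Neither PPBP nor PF4V1 held the NF-kB core in its window, and PF4 had no entry.

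Outside the cluster the genes went both ways. Of the 10 before it, 1 was lower and 3 higher, and of the 10 after it, 3 were lower and 1 higher. RASSF6, next to CXCL8, differed by −1.44 ± 0.18, and its call was lost without knockout replicate 2 (adjusted p = 0.0553), wild-type replicate 1 (adjusted p = 0.0588) or wild-type replicate 2 (adjusted p = 0.0747). MTHFD2L, a mitochondrial folate enzyme gene next to CXCL2, differed by −1.78 ± 0.11 (limma adjusted p = 0.000776). EREG, the growth factor epiregulin, followed soon after and was bright in both groups, at 11.12 and 10.89 (limma adjusted p = 0.326). BTC, the growth factor betacellulin, was higher by 2.05 ± 0.13 (limma adjusted p = 0.000776). Farther out, ODAPH differed by −4.76 ± 0.21 (limma adjusted p = 0.000278), RCHY1 by −1.21 ± 0.11, the bicarbonate transporter SLC4A4 by 2.35 ± 0.15, the metalloprotease ADAMTS3 by 2.65 ± 0.20 and the serum protein gene ALB by 1.73 ± 0.38. The calls of ALB (adjusted p = 0.231 and 0.216) and RCHY1 (adjusted p = 0.056 and 0.0571) were lost without wild-type replicate 1 and without wild-type replicate 2.

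**Figure D3:**
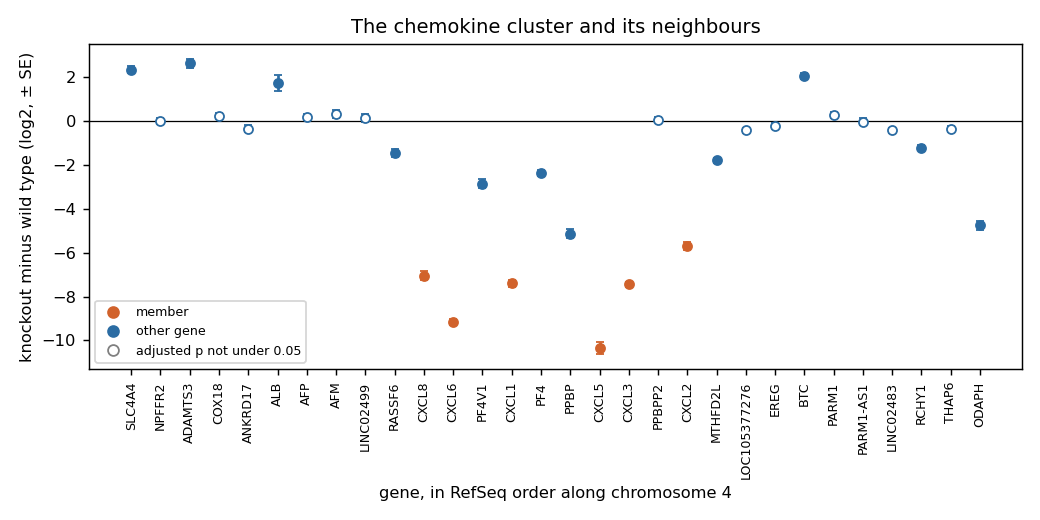
Log2 difference, knockout-labelled minus wild type, with its SE, for the brightest probe set of each measured gene in RefSeq order along chromosome 4. Orange marks the 6 ligands and blue the 24 other genes, and open circles did not pass the threshold. The ligands lie between −5.70 and −10.34, and 13 of the 24 other genes did not pass.

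The list of inducing genes held cytokines, receptors and adaptors upstream of the ligands, with inhibitors of interleukin-1 signalling among them. Its genes were called lower more often than higher. Of its 25 measured genes, 12 were lower, 4 higher and 9 not called. Over all genes 15.2% were called lower and 18.8% higher. The median difference of the list was −0.29, against 0.06 over all genes. IL1A and IL1B encode the interleukin-1 cytokines. IL1A read 9.45 and 9.90 against 2.07 and 1.91 (−7.69 ± 0.18, limma adjusted p = 8.75e-05), although 1 of its 2 probe sets was not called. IL1B read 9.09 and 9.36 against 4.49 and 4.96 (−4.50 ± 0.20, limma adjusted p = 0.000304). TLR2, a receptor for bacterial lipoproteins, differed by −3.87 ± 0.30 (limma adjusted p = 0.0013), a call that was lost without wild-type replicate 1 (adjusted p = 0.0616) and without wild-type replicate 2 (adjusted p = 0.0597). The decoy receptor IL1R2 was higher, at 7.80 and 7.56 against 4.84 and 5.02 (2.75 ± 0.14, limma adjusted p = 0.000446). Also called higher were the receptor genes IL1R1 (2.51 ± 0.16), IL17RB (2.33 ± 0.19) and TNFRSF1A (0.55 ± 0.13). The TNFRSF1A call was lost without knockout replicate 1. IL1RN, which encodes the interleukin-1 receptor antagonist, was called lower (−1.88 ± 0.19). OSMR, the oncostatin M receptor, was bright and differed by −1.69 ± 0.12, while the kinase IRAK1 read 10.78 against 11.04 (limma adjusted p = 0.188). Fewer genes of this list were called with either wild-type array left out, as were fewer of all probe sets.

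Factors that act on ligand transcription or mRNA decay were lower in 11 of 28 measured genes, higher in 3 and not called in 14 (median −0.32). The shares over all genes were 15.2% lower and 18.8% higher. The NF-kB feedback inhibitor TNFAIP3, itself an NF-kB target, read 9.46 and 9.51 against 5.26 and 5.21 (−4.25 ± 0.11, limma adjusted p = 9.26e-05), and its partner TNIP1 differed by −2.55 ± 0.12. NFKB1, an NF-kB subunit, read 8.32 and 8.35 against 6.80 and 6.63 (−1.62 ± 0.12, limma adjusted p = 0.0011). CEBPB, a C/EBP factor, differed by −1.40 ± 0.12, a call lost without wild-type replicate 1 (adjusted p = 0.0555) and without wild-type replicate 2 (adjusted p = 0.0565). Among the RNA-binding proteins HNRNPD read 11.12 against 11.06 (limma adjusted p = 0.792), with 2 of its 9 probe sets called lower, and ELAVL1, with 3 of 4 probe sets called higher, differed by 0.42 ± 0.11 (limma adjusted p = 0.0429), a call that was lost without any 1 of the arrays (adjusted p from 0.0882 to 0.209). With either wild-type array left out, fewer genes of this list were called, as were fewer of all probe sets.

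Genes that share the NF-kB core in their promoter window were also counted, with the members left out. Of 63 such measured genes, 15 were lower (23.8%), 5 higher (7.94%) and 43 not called, with a median difference of −0.09, where 15.2% of all genes were called lower and 18.8% higher. NFKB1, NFKBIZ, NFKBIA and REL are among the 15 and were also counted as lower in the list of transcription and mRNA decay. The largest fall among the 63 was that of ICAM1, an adhesion molecule for leukocytes (8.73 against 4.11, −4.62 ± 0.12, limma adjusted p = 9.9e-05). The largest rise was that of CACHD1 (1.92 against 5.08, 3.16 ± 0.16, limma adjusted p = 0.000413). The CXC chemokine genes CXCL10 (3.23 in both groups) and CXCL11 (1.81 against 1.83) were dim and not called. Apart from NFKB1, these genes were named after their values were seen. When any 1 of the 4 arrays was dropped, fewer of these genes were called in each direction, as were fewer of all probe sets.

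Of 25 measured signalling and clearance genes of the ligands, 4 were lower, 7 higher and 14 not called (median 0.08), against 15.2% lower and 18.8% higher over all genes. MMP1, a collagenase, read 9.81 and 9.70 against 2.63 and 2.20 (−7.34 ± 0.18, limma adjusted p = 8.75e-05). Of the heparan sulfate carriers that hold chemokines at the cell surface, SDC2 was higher (2.78 ± 0.12) and SDC4 lower (−2.18 ± 0.12). RGS2, a regulator of G-protein signalling, was higher by 2.89 ± 0.14, and the G-protein subunit GNAI3 read 10.56 against 10.84 (limma adjusted p = 0.134). Leaving out either wild-type array gave fewer calls in this list, as it did over all probe sets.

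The list of other attractants also held factors that act mainly on other cells and an inhibitor of neutrophil recruitment. Of its 17 measured genes, 8 were lower, 2 higher and 7 not called (median −0.41), where 15.2% of all genes were lower and 18.8% higher. PPBP, PF4 and PF4V1 of the cluster are among the 8. LCN2, the iron-binding neutrophil protein lipocalin 2 that epithelia also make, read 12.63 and 12.73 against 6.11 and 5.41 (−6.92 ± 0.25, limma adjusted p = 0.000184). The complement genes went opposite ways, with C3 at −4.95 ± 0.18 (limma adjusted p = 0.000197) and C5 at 4.95 ± 0.28 (limma adjusted p = 0.000534). MIF, which also binds CXCR2, read 12.48 against 12.20 (limma adjusted p = 0.145). ANXA1, an inhibitor of neutrophil recruitment with 1 of 2 probe sets called, differed by 0.46 ± 0.11 (limma adjusted p = 0.0359), a call lost when any 1 array was left out (adjusted p from 0.089 to 0.205), which left 1 gene higher, C5. Fewer genes of the list were also called lower with any 1 array left out, as were fewer of all probe sets.

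**Figure D4:**
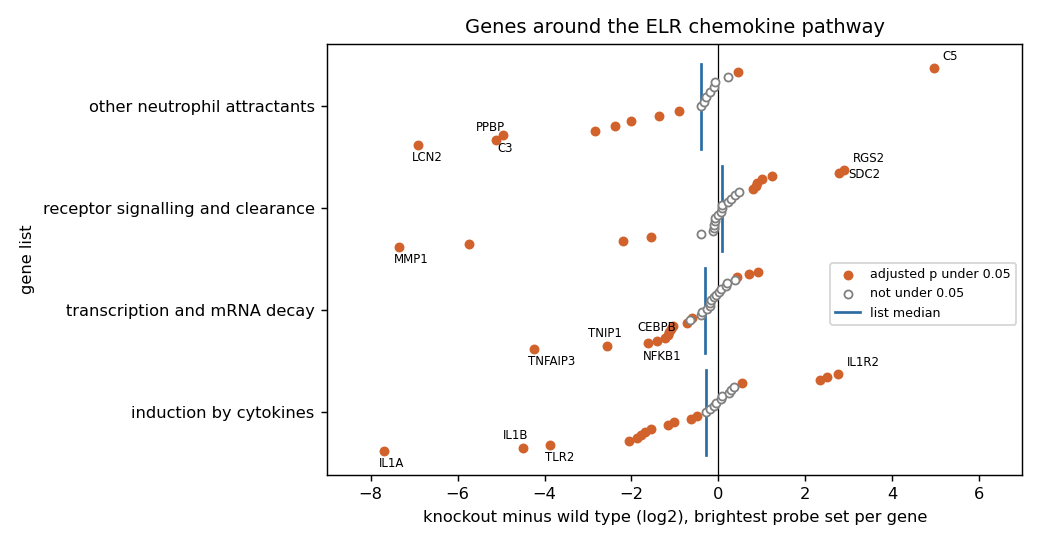
Log2 difference, knockout-labelled minus wild type (horizontal axis), of each measured gene of the 4 lists (vertical axis, with genes of a list spread in order of their difference). Filled points passed an adjusted p of 0.05, open points did not, and blue bars are list medians, which lie between −0.41 and 0.08. The points named are among the 4 called genes of each list with the largest differences, all 4 except in signalling and clearance, where 3 are named.

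The genes whose profile over the 4 arrays lay nearest to a ligand's were found by Euclidean distance between log2 values, each centred on its own mean, with the 8 members left out of the search. Nearest to CXCL5 (214974_x_at) were OAT, an ornithine aminotransferase, at a distance of 1.20, the pentraxin PTX3 at 1.69 and MAGT1 at 1.73. The nearest other member, CXCL6, lay at 1.24. Nearest to CXCL8 (202859_x_at) were the metalloreductase STEAP1 at 0.13, the nucleotide synthesis enzyme PRPS2 at 0.16 and LCN2 at 0.19. The nearest other member, CXCL1, lay at 0.38. With 4 arrays in 2 groups, this distance is small for any gene with a group difference of like size and little spread.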

How the data were processed

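Total RNA was profiled on 4 arrays, grouped by the titles in the labels into 2 wild-type and 2 ARID1A knockout arrays. The values are log2 values as deposited by the authors, made with RMA (background correction, quantile normalization and probe set summary) and the affy package, per the submitters' processing notes, which state no version. RMA removes overall brightness differences and gives no detection call, so low values are bounds at best, and arrays have no counting depth. Precision is limited by how few arrays there are.

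The platform annotation gave 1 symbol for 41091 probe sets, of which 41037 matched RefSeq (GRCh38.p14) by gene identifier, several symbols for 1801 and none for 11721. The groups were tested with limma 3.58.1 (lmFit, eBayes; R 4.3.3) over all 54613 probe sets, without covariates or filter, and p-values were adjusted by Benjamini-Hochberg with a threshold of 0.05. The fit was run on simulated data drawn from its own variance model, which cannot test whether that model suits these arrays. Lists use each gene's brightest probe set, and list genes that are not among the measured genes were not analysed here. Named genes were all members, up to 4 called list genes by size and 2 others by level per list, neighbours called at 2-fold or more or lying between members, and 3 nearest profiles. IL1R1, IL17RB, TNFRSF1A and IL1RN were named besides, after their values were seen. Genes that only check sample identity were not named. A further gene that the rule would name is not reported here. Members and lists were chosen with earlier results of these data known. Python 3.11.15 was used for promoter searches. Protein sequences were not used here. Alternatives were another variance model, a filter on dim probe sets, renormalization, a floor, 1 probe set per gene, leaving out _x_at and _s_at probe sets, a replicate block, and leaving out each array.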

Additional observations from a re-analysis of the deposited data

How the results depend on the processing

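The 6 ligands kept a lower value past the threshold at their brightest probe set in every alternative run, with the exception that CXCL8 had no probe set without _x_at and _s_at probe sets. CXCL5 ran from −10.76 to −6.63 and CXCL2 from −5.92 to −2.47, the smaller values coming from other probe sets of the gene when _x_at and _s_at were left out. The count of member probe sets called lower was 6 of 8 with 1 probe set per gene and 5 of 8 without _x_at and _s_at probe sets, where fewer probe sets were tested, and 9 to 10 of 13 when an array was left out. CXCR2, not called in any fit, had a difference above or at 0 with arrays centred on their medians (0.016), floored values (0.00), without knockout replicate 1 (0.13) and without wild-type replicate 1 (0.05), and leaving out each array in turn gave −0.15 to 0.13.

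Over all probe sets 14686 were called, against 7657 with 1 probe set per gene, 9125 without _x_at and _s_at probe sets, 7446 with floored values, and from 2627 to 10167 when an array was left out. With floored values 7 inducing genes and 5 other attractants were called lower. Without _x_at and _s_at probe sets 2 inducing genes were called higher and 7 transcription or decay genes lower. When an array was left out, inducing genes called ran from 5 to 9 lower and 2 to 3 higher, transcription or decay genes from 3 to 11 lower and 0 to 2 higher, signalling genes from 2 to 7 higher, other attractants from 5 to 7 lower with 1 higher, and genes with the NF-kB core from 5 to 13 lower and 1 to 3 higher. Leaving out an array for cluster neighbours, core genes and cell type markers was chosen after seeing the data. With an array left out, its group's lone array was assumed to vary like the other group.

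With the replicate number as a block, 10 member probe sets were called lower and other attractants called higher fell to 1. Same-numbered arrays correlated at 0.06 in their deviations from the group means. Whether such arrays share more than a number is not known from this value.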
